A study of Mus musculus with 4 samples.

Results

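The insulin-like growth factor (IGF) system was described through 10 genes: the ligands Igf1 and Igf2, the receptors Igf1r and Igf2r, and the binding proteins Igfbp2, Igfbp3, Igfbp4, Igfbp5, Igfbp6 and Igfbp7. These are 10 of the 19937 genes that had a probe set naming 1 gene only on an Affymetrix mouse gene array. Their probe sets were to be selected on the highest mean over the 4 arrays, but each of the 10 genes had only 1, so that choice never arose. The group was assembled with the fall of Igfbp5 already known, and its values are therefore a description. The cells were sphere-forming stem and progenitor cells taken from the lateral ventricle walls of C57BL/6 mice aged 9 to 12 weeks and grown as primary neurospheres with FGF2, EGF and B-27, a supplement that contains insulin. All 4 cultures were given non-targeting siRNAs and then pCLIG-Pax6 viral particles, so that both groups carried added Pax6, a neurogenic transcription factor. The olaparib group (2 arrays) was treated with 100 nM olaparib, which inhibits PARP1 and PARP2, in 0.01% DMSO, and the DMSO group (2 arrays) with 0.01% DMSO alone. In both, the cells were moved onto laminin without growth factors for the last 10 h to differentiate. The sample labels place olaparib or DMSO in these 10 h. Arrays within a group are labelled as biological replicates, without a statement that they came from separate mice, and the labels give neither the share of cells reached by the virus nor a sort for them.

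IGF1 and IGF2 are secreted peptides that signal for growth and survival through the receptor tyrosine kinase IGF1R and the insulin receptor, which feed the PI3K-AKT-mTOR and ERK pathways. IGF2R has no kinase activity and removes IGF2 from the cell surface. The binding proteins hold IGFs in the extracellular space, prolong their life, and can either withhold them from the receptor or release them after cleavage. In the adult subventricular zone, IGFs are known to act on the division and differentiation of neural progenitors.

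Igfbp2 and Igfbp5 are neighbours on chromosome 1 in GRCm38.p6, where Igfbp2 (72824480 to 72852474, plus strand) and Igfbp5 (72858065 to 72874865, minus strand) face each other with their 3′ ends. They are 5590 bases apart, with 0 annotated genes between them. The 100 bases before the transcription start are shown for the 5 genes that changed, because the members that changed went in opposite directions. All 10 genes had a promoter in the RefSeq table of GRCm38.p6. For Igfbp2, which has several starts there, the outermost was used, and the starts for Igf1, Igfbp3 and Igfbp4 lie within the annotated gene. Capitals mark matches on either strand to 6 short motifs. The TATA-type motifs were TATAAA and its variants TATTTAA and also TATATA. No marked matches overlap in the windows shown. The others were GCCNNNGGC, a core read by AP-2 factors, the GC box GGGCGG and the CCAAT box.
Igfbp5 (chr1:72874866-72874965, minus strand, lower with olaparib): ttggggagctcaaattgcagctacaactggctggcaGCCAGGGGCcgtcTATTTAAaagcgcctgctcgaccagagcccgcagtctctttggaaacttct
Igf1 (chr10:87861011-87861110, plus strand, lower with olaparib): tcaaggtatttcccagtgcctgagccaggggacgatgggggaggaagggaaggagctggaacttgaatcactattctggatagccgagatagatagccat
Igfbp2 (chr1:72824380-72824479, plus strand, higher with olaparib): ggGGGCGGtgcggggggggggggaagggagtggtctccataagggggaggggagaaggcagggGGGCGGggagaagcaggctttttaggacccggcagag
Igfbp3 (chr11:7213924-7214023, minus strand, higher with olaparib): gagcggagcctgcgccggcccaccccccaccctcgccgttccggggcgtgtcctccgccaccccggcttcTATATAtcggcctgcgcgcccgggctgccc
Igfbp4 (chr11:99041144-99041243, plus strand, higher with olaparib): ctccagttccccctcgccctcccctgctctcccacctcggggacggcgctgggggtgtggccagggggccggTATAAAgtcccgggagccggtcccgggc

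The Igfbp5 window held TATTTAA, found in 1.5% of 32851 promoter windows of that length, and GCCNNNGGC, found in 6.78%. The Igfbp3 window held TATATA (2.19% of windows), the Igfbp4 window TATAAA (5.56%) and the Igfbp2 window GGGCGG (24.7%). The Igf1 window held none of the 6, CCAAT included (18.9%). Among the members not shown, GGGCGG was also in windows of Igfbp7, Igf1r, Igf2 and Igf2r, and CCAAT was in that of Igfbp6. The window before the inner Igfbp2 start (72825387) held none of the 6. These matches are descriptions of the letters, and the arrays carry no measurement of factor binding.

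Olaparib went with a mixed change of the IGF system. Igfbp5 and Igf1 fell, Igfbp2, Igfbp3 and Igfbp4 rose, and Igfbp6, Igfbp7, Igf2, Igf1r and Igf2r did not pass the threshold, an adjusted p of 0.05 in limma over all 13956 genes tested. All 10 genes were bright enough to be tested. So 5 of 10 passed, where 6.22% of all genes tested did. The 5 include Igfbp5, whose fall was known when the group was assembled. By direction, 3 were higher (2.84% of all genes) and 2 lower (3.37%). An unadjusted p under 0.05 was reached by 6 of the 10, where 19.1% of all genes reached it. The groups did not overlap for 6 of the 10, where 47.1% of all genes were so separated. The olaparib arrays lay above in 4 of these 6 (23.2% of all genes) and below in 2 (23.9%). The median change of the 10 was 0.05 on the log2 scale, near that of all genes at 0.0013, since rises and falls offset each other. The number of the 10 genes past the threshold was 2 without DMSO replicate 1, 3 without DMSO replicate 2, and 1 when the fit took in all probe sets above that brightness.

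**Figure D1:**
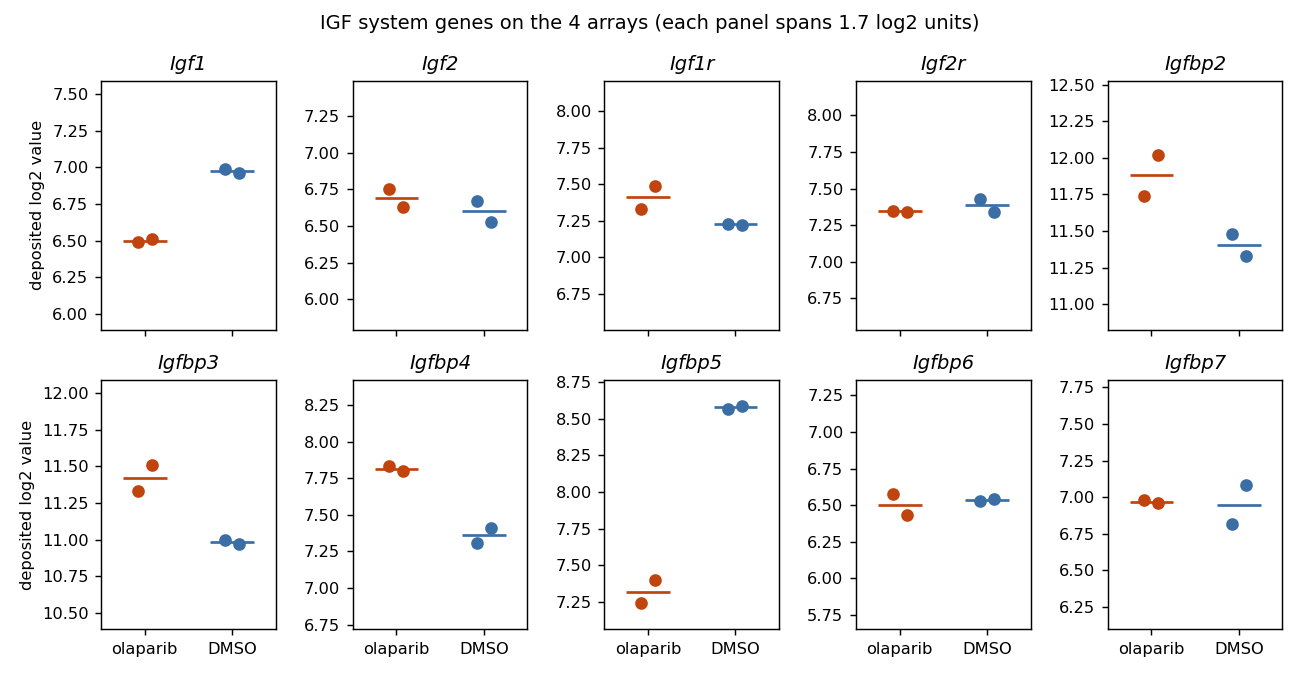
Deposited log2 values of the 10 IGF system genes, 1 panel per gene, with olaparib arrays at the left and DMSO arrays at the right. Points are single arrays, horizontal lines are group means of 2 arrays, and every panel spans the same range of log2 units; Igfbp5 shows the widest gap, 7.24 and 7.40 with olaparib against 8.57 and 8.59 with DMSO.

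Igfbp5 encodes a binding protein that also attaches to the extracellular matrix. Its log2 values were 7.24 and 7.40 on the olaparib arrays, against 8.57 and 8.59 on the DMSO arrays. Both olaparib arrays lay well below both DMSO arrays, and the smallest difference over the 4 array pairs was -1.18. The mean was 7.32 ± 0.11 with olaparib and 8.58 ± 0.0099 with DMSO (SD, n = 2 each). Igfbp5 fell by 1.26 log2 units (SE 0.09, 95% interval -1.45 to -1.07), to 0.417 of the DMSO level. This was the fall of rank 2 among the 13956 genes tested. The adjusted p in limma was 1.51e-07, and it lay between 1.24e-19 and 0.0224 over 13 other settings, all of them past the threshold. The change itself lay between -1.34 and -1.18 over those settings. The olaparib mean was above the 75th percentile (6.56) of 25 genes of tissues unrelated to brain but below the highest of them (7.77), so the size of the fall is less certain than its direction.

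Igfbp2 is the binding protein known for its abundance in brain and cerebrospinal fluid. It had log2 values of 11.74 and 12.02 with olaparib, against 11.48 and 11.33 with DMSO. The groups did not overlap, but the olaparib arrays differed from each other by 0.29. Igfbp2 rose 1.39-fold, by 0.47 log2 units (SE 0.13), with an adjusted p of 0.0306. It thus went up while its neighbour Igfbp5 went down. The changes of the 2 genes differed by 1.73 on the log2 scale, and by 1.59 to 1.88 over the 4 array pairs. A log2 shift shared by all genes of an array cancels in this difference, but an offset that depends on brightness does not.

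Igfbp3, the main carrier of IGFs in blood, had log2 values of 11.33 and 11.51 with olaparib, against 11.00 and 10.97 with DMSO. Again the lower olaparib array stood above both DMSO arrays. Igfbp3 rose 1.35-fold, by 0.43 log2 units (SE 0.12), with an adjusted p of 0.0366. Igfbp4, known as an inhibitor of IGF action until it is cleaved, had 7.83 and 7.80 with olaparib, against 7.31 and 7.41 with DMSO. Its replicates lay close together in both groups, 0.03 apart with olaparib and 0.10 apart with DMSO. Igfbp4 rose 1.37-fold, by 0.45 log2 units (SE 0.08), with an adjusted p of 0.00193. The 3 rises were alike in size, at ranks 120, 133 and 160 from the largest rise for Igfbp2, Igfbp4 and Igfbp3.

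Igfbp2 and Igfbp3 were among the brightest genes, and the 698 brightest genes tested (5%) had a median change of 0.08. On olaparib replicate 2 those genes lay a median of 0.12 above their own mean, and this was also the higher olaparib array for both binding proteins. Quantile normalization gave changes of 0.36 for Igfbp2 and 0.34 for Igfbp3, and both still passed (adjusted p = 0.0215 and 0.0141). The calls of both were lost in limma without DMSO replicate 1 (changes of 0.55 and 0.45, adjusted p = 0.219 and 0.456) and without DMSO replicate 2 (changes of 0.40 and 0.42, adjusted p = 0.488 and 0.458). They were also lost with no filter on dim genes (adjusted p = 0.0891 and 0.0827), with median centring (0.102 and 0.168) and when the fit took in all probe sets (0.216 and 0.197). The call of Igfbp4 was lost without DMSO replicate 1 (change 0.41, adjusted p = 0.0717) and when the fit took in all probe sets (adjusted p = 0.0910). Each of the 3 genes was higher with olaparib in all 13 settings.

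Igfbp6, which prefers IGF2 over IGF1, had log2 values of 6.58 and 6.43 with olaparib, against 6.53 and 6.54 with DMSO, so the olaparib arrays lay on either side of the DMSO arrays. The difference was -0.03 (SE 0.08, 95% interval -0.21 to 0.14, adjusted p = 0.907). Igfbp7, a binding protein of low IGF affinity known from blood vessels, had 6.98 and 6.96 with olaparib, against 6.82 and 7.08 with DMSO. Here the spread lay within the DMSO arrays, which were 0.26 apart. The difference was 0.02 (95% interval -0.16 to 0.20, adjusted p = 0.960). Igfbp1, which lies beside Igfbp3 on chromosome 11 with a gap of 3539 bases, was looked up after the other values were seen. Its means were 6.48 with olaparib and 6.38 with DMSO, and the difference of 0.10 did not pass (adjusted p = 0.620).

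Among the ligands, Igf1 had log2 values of 6.49 and 6.51 with olaparib, against 6.99 and 6.96 with DMSO. The replicates were within 0.03 of each other in both groups, and the groups did not overlap. Igf1 fell by 0.47 log2 units (SE 0.08, 95% interval -0.63 to -0.31, adjusted p = 0.000636), to 0.722 of the DMSO level. It was past the threshold in 11 of the 12 other settings that tested it, the exception being the fit over all probe sets (adjusted p = 0.0709). Its olaparib mean of 6.50 lay close to the values of those 25 unrelated genes (median 6.39, 75th percentile 6.56), so there was little signal over background left there and the size of the fall is uncertain. The antisense gene Igf1os, which overlaps the start of Igf1 and was also looked up after the other values were seen, had 6.02 and 6.23 with olaparib, against 6.16 and 6.09 with DMSO. It was too dim to be tested.

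Igf2, the ligand known from choroid plexus and meninges, had 6.75 and 6.63 with olaparib, against 6.67 and 6.53 with DMSO. The groups overlapped, and the difference was 0.09 (SE 0.08, 95% interval -0.08 to 0.26, adjusted p = 0.651). These values too were near those of the unrelated genes, so a change of Igf2 may not have been detectable at this signal.

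Of the receptors, Igf1r had log2 values of 7.33 and 7.49 with olaparib, against 7.23 and 7.22 with DMSO. Both olaparib arrays were higher, but by 0.10 at the closest pair, which is less than the 0.16 between the olaparib arrays. The difference was 0.18 (SE 0.08, 95% interval 0.01 to 0.35) and did not pass (adjusted p = 0.224). It passed in limma without olaparib replicate 1 (difference 0.26, adjusted p = 0.0411), and was 0.10 without olaparib replicate 2. Igf2r had 7.35 and 7.34 with olaparib, against 7.43 and 7.34 with DMSO. The second DMSO array matched the olaparib arrays, and the difference was -0.04 (95% interval -0.20 to 0.13, adjusted p = 0.881).

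**Figure D2:**
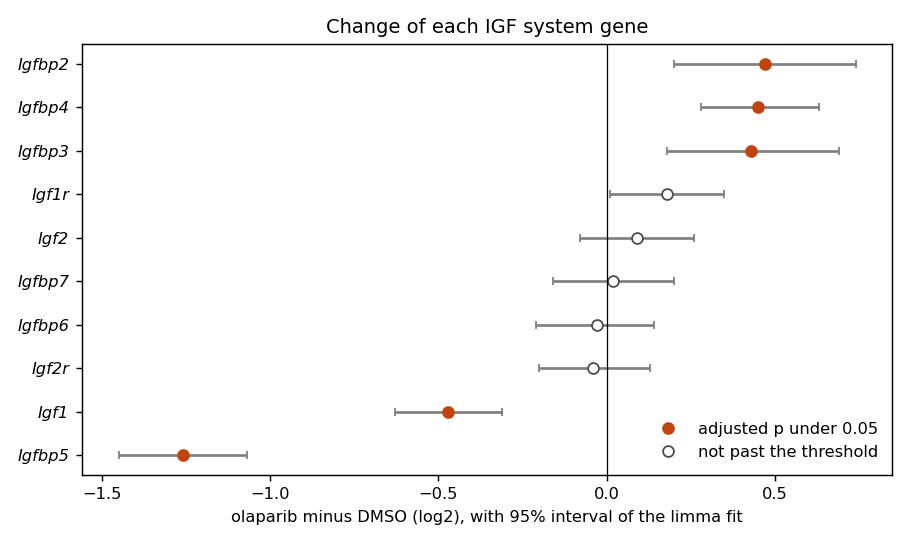
Change of each IGF system gene, olaparib minus DMSO on the log2 scale (x axis), with the 95% interval of the limma fit as a bar. Filled points passed an adjusted p of 0.05: Igfbp2, Igfbp4 and Igfbp3 lie to the right of 0, at 0.43 to 0.47, and Igf1 and Igfbp5 to the left, at -0.47 and -1.26.

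**Figure D3:**
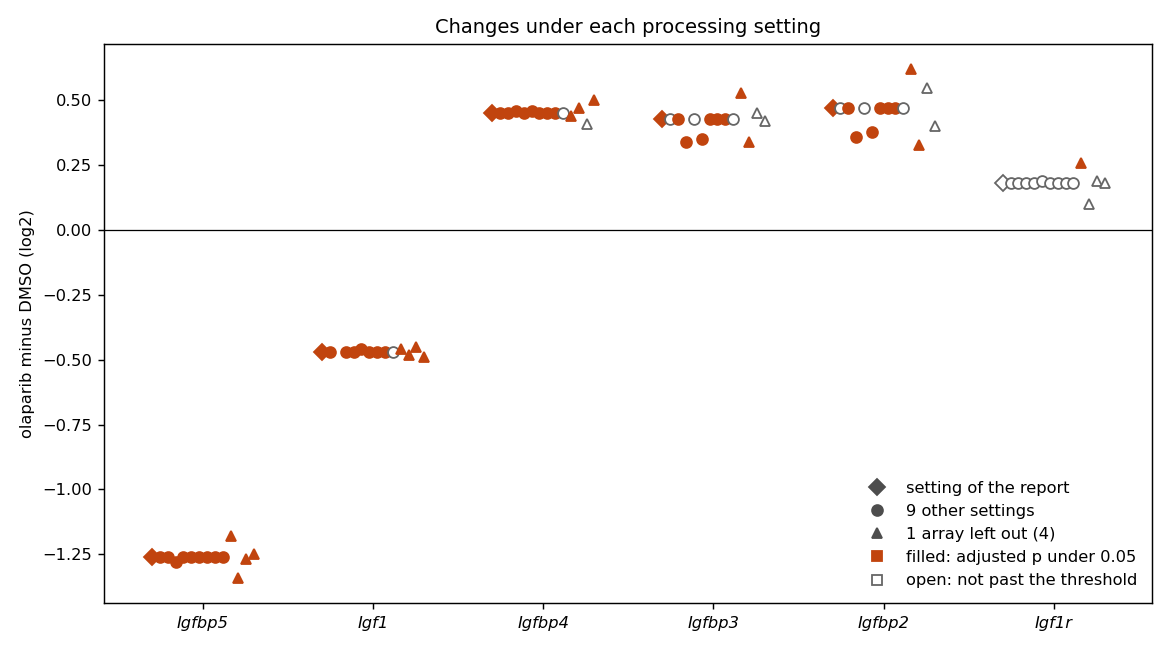
Change (y axis, olaparib minus DMSO, log2) of 6 IGF system genes under the setting of the report, 9 other settings and 4 fits with 1 array left out. Filled symbols passed an adjusted p of 0.05: those of Igfbp5 are filled throughout, at -1.34 to -1.18, while those of Igfbp2 and Igfbp3 are partly open and those of Igf1r open but for 1.

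All 12 markers of neural stem cells and astrocytes were bright enough to be tested, as were 9 of 12 neuroblast, 8 of 9 oligodendrocyte lineage and 8 of 10 ependymal markers. The same held for 6 of 10 pericyte and fibroblast, 5 of 9 microglial, 4 of 9 choroid plexus and 2 of 10 endothelial markers. Of all genes 70.0% were bright enough, and of the genes of unrelated tissues 11 of 25. The choroid plexus gene Ttr and the endothelial genes Cldn5 and Pecam1 were below the brightness filter, and the mean over the endothelial markers was 6.40 and 6.33 with olaparib, against 6.39 and 6.37 with DMSO. Of the 9 neuroblast markers tested, 3 fell and 0 rose, where 3.37% and 2.84% of all genes did. Those were Dcx, Nsg2 and Celf3. An unadjusted p under 0.05 in limma was reached by 6 of the 9, where 19.1% of all genes reached it. The others differed by -0.32 (Tubb3), -0.27 (Dlx2), -0.2 (Dlx1), -0.04 (Gad1), -0.02 (Igfbpl1) and 0.08 (Cd24a), none past the threshold. The mean over all 12 neuroblast markers was 7.36 and 7.37 with olaparib, against 7.61 and 7.62 with DMSO. Of the 12 stem cell and astrocyte markers 2 fell and 0 rose, and 4 had an unadjusted p under 0.05. Gfap fell by 1.03 and Aqp4 by 0.71. Slc1a3 differed by -0.31, Sox2 by -0.23, Nes by 0.23 and Vim by 0.16, none past the threshold. The median change of the 12 was -0.1. Their mean was 10.12 and 10.27 with olaparib, against 10.38 on both DMSO arrays. Of 8 oligodendrocyte lineage markers 1 rose and 0 fell, with a median change of 0.02. That was Cspg4 at 0.33 (adjusted p = 0.0122), while Mbp differed by 0.26, Pdgfra by -0.23 and Olig2 by -0.16, none past the threshold. An unadjusted p under 0.05 was reached by 3 of the 8. Of 4 choroid plexus markers 1 fell, Otx2 by 0.35 (adjusted p = 0.0124). In limma 0 passed of 8 ependymal, 5 microglial, 2 endothelial and 6 pericyte and fibroblast markers, of which 3, 1, 0 and 0 had an unadjusted p under 0.05. The part of cell composition in the changes of the IGF genes was not tested, and in RNA from mixed cells fewer cells of a type and less RNA per cell cannot be told apart.

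Likeness to Igfbp5 was taken as the root mean square difference between the 4 values, centred on the mean of each gene over the arrays. Tested genes with Gm-number or Rik names were left out, and the 5 nearest of the rest were taken. They were Dcx at 0.119 log2 units, Mfsd2a at 0.124, Draxin at 0.126, Pdp1 at 0.127 and Nrep at 0.131. Dcx encodes a microtubule-binding protein of migrating neuroblasts, Mfsd2a a lipid transporter, Draxin an axon guidance protein, Pdp1 a phosphatase of pyruvate dehydrogenase and Nrep a protein of regenerating neurons. With groups of 2 arrays this likeness mostly reflects a fall of similar size. Among the IGF genes Igf1 was nearest to Igfbp5, at 0.40, and Igfbp2 was farthest, at 0.87.

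Beyond the 10 genes, lists drawn up around the pathway were examined. They reach past IGF signalling itself, to imprinted genes such as Mest and matrix genes such as Fn1. Of their genes 88 were tested, of which 4 rose and 2 fell. That is 6.82%, near the 6.22% of all genes tested, and their median change was 0.03. Without olaparib replicate 1 or 2 the number past the threshold was 20 or 14, and without DMSO replicate 1 or 2 it was 2 or 1. Among 12 partners and proteases of the binding proteins, 1 rose and 2 fell, and 6 had an unadjusted p under 0.05, where 19.1% of all genes did. Thbs1, a matrix glycoprotein, had log2 values of 6.86 and 6.83 with olaparib, against 7.56 on both DMSO arrays. It fell by 0.71 (SE 0.08, adjusted p = 1.17e-05) and passed in all 13 other settings. Its olaparib mean of 6.84 was above the 75th percentile (6.56) of the 25 unrelated genes but below the highest of them (7.77). As for Igfbp5, the size of the fall is less certain than its direction. Fn1, which encodes fibronectin, fell by 0.33 (adjusted p = 0.0303), and the metalloprotease gene Adamts1 rose by 0.33 (adjusted p = 0.0207). Pappa and Pappa2, genes of proteases that cleave IGF binding proteins, were below the brightness filter. Stc2, an inhibitor of PAPP-A, differed by 0.25 (adjusted p = 0.0574).

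Adaptors link the receptors to the pathways downstream. They were listed together with regulators such as Ptpn1, Ptpn11, Sos1, Socs2 and Socs3. Of the 14 genes of this list 0 passed in limma, and 0 had an unadjusted p under 0.05. The smallest p was that of Sh2b1, which differed by 0.16 (adjusted p = 0.296). Of 13 genes of the PI3K-AKT branch and its phosphatases 0 passed and 0 had an unadjusted p under 0.05, and Phlpp1, an AKT phosphatase, differed by -0.21 (adjusted p = 0.338). Of 15 mTOR branch genes 2 rose and 0 fell, where 2.84% and 3.37% of all genes did. An unadjusted p under 0.05 in limma was reached by 5 of the 15, where 19.1% of all genes reached it. Eif4ebp1, a repressor of translation that mTOR inactivates, had 8.18 and 8.13 with olaparib, against 7.77 and 7.76 with DMSO. The groups were well apart, and it rose by 0.39 (adjusted p = 0.00988). Sesn2, a stress-induced inhibitor of mTOR complex 1, rose by 0.41 (adjusted p = 0.0394).

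In the FOXO and GSK3 branch 1 of 9 genes rose, the kinase gene Sgk1 by 0.28 (adjusted p = 0.0477), and 0 fell; 3 had an unadjusted p under 0.05. Of 15 FOXO target genes 0 passed in limma, with 4 at an unadjusted p under 0.05, and Sesn3 differed by -0.36 (adjusted p = 0.0638). Over all genes tested, 2.84% rose and 19.1% had an unadjusted p under 0.05 in limma. The insulin receptor gene Insr differed by 0.16 (adjusted p = 0.508), and of the 2 genes tested of insulin and its receptors 0 passed in limma, with 0 at an unadjusted p under 0.05. The list of IGF2 mRNA binding and imprinted genes had 8 tested: Igf2bp3, Airn, Plagl1, Cdkn1c, Grb10, Dlk1, Meg3 and Mest. Of these 0 passed in limma, with 1 at an unadjusted p under 0.05. That was the imprinted factor gene Plagl1, which differed by 0.29 (adjusted p = 0.0912). H19 and Nctc1, listed for the Igf2 locus, had no probe set naming them alone, so the list does not describe that locus. Of the 6 genes that passed, all but Thbs1 lost the call without DMSO replicate 1 and without DMSO replicate 2, with adjusted p up to 0.348 for Fn1, 0.281 for Adamts1, 0.172 for Eif4ebp1, 0.455 for Sesn2 and 0.584 for Sgk1. Adamts1, Sesn2 and Sgk1 also lost it without olaparib replicate 2, where their changes were 0.24, 0.22 and 0.21. The fit over all probe sets kept the call of Thbs1 alone, and with no filter those of Fn1, Adamts1, Sesn2 and Sgk1 were lost. Median centring ended the calls of Fn1, Sesn2 and Sgk1. Sgk1 passed in only 5 of 13 other settings, and was also lost with cyclic loess (adjusted p = 0.0523) and with eBayes without trend (adjusted p = 0.0886).

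**Figure D4:**
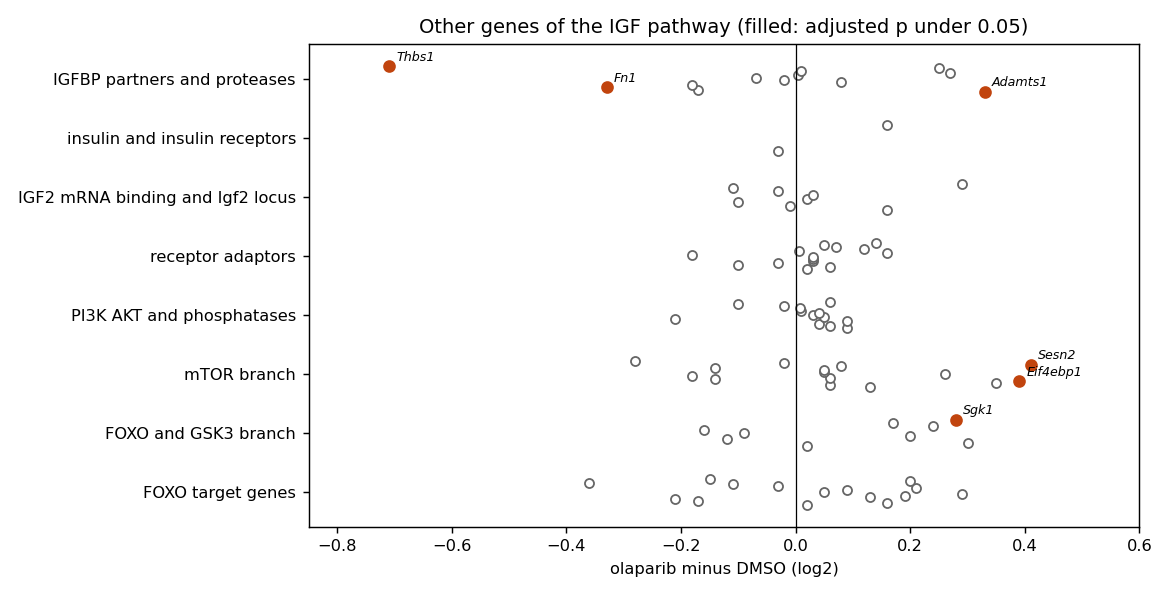
Change of the tested genes of 8 lists drawn up around the IGF pathway outside the 10 genes. The x axis is olaparib minus DMSO on the log2 scale, with 1 point per gene and 1 row per list. The row named for the Igf2 locus holds Igf2bp3 and imprinted genes, without H19 or Nctc1. Filled, named points passed an adjusted p of 0.05, and Thbs1 at -0.71 lies farthest from 0. The receptor adaptors, listed with regulators, and the PI3K-AKT genes lie between -0.21 and 0.16.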

How the data were processed

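Per the labels' protocols, RNA was amplified from 40 ng total RNA a sample and hybridised after biotin labelling, 1 array a sample. The deposited table holds the authors' log2 values, 1 per probe set. Their background correction, normalization and summary method, array batches and scan dates are not given in the sources used here.

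The platform annotation gave a single gene for 21640 of 34760 probe sets, or 19937 genes, of which 19855 matched the RefSeq gene table. The test covered 13956 genes, those with a mean over the 4 arrays above the 30th percentile (6.42). Changes, olaparib minus DMSO, were fitted in R 4.3.3 with limma 3.58.1 (lmFit, then eBayes with a trend). Tests were two-sided, and p-values were adjusted by Benjamini-Hochberg across those genes; every adjusted p is limma's. With 2 residual degrees of freedom per gene the error rests largely on the shared prior, worth 18.1 degrees of freedom. An exact permutation test of 2 against 2 arrays cannot go below p = 0.333, so none was used. The number of arrays limits the precision, and the median SD of a gene was 0.077 with olaparib and 0.048 with DMSO. No label pairs the arrays across groups.

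The 10 genes, the pathway and marker lists and the alternatives were chosen with earlier results of these data known. Besides the 10 genes, the text names up to 4 members per pathway list that passed, otherwise the one with the smallest p. It also names the 5 genes most like Igfbp5, with Gm-number and Rik names left out. Igfbp1, Igf1os, Pappa, Pappa2 and Stc2 and the marker genes named with values or as dim were singled out after their values were seen. The 13 alternatives covered the filter (none, or the 50th percentile), the scaling (quantile, median centring, cyclic loess), the prior (without trend, or robust), averaging the probe sets of each gene, fitting all 21704 probe sets above 6.42, and leaving out each array. A fit with the replicate number as a block was added after seeing the data and is not counted among the 13. On data simulated for this comparison with 13956 genes, the fit recovered 56.8% of genes changed by 1.3-fold and 95.6% at 1.5-fold. Of the calls on those simulated data 4.71% were false, and the share of false calls on the real arrays was not measured. The real calls, 397 higher and 471 lower, became 1 and 11 with all probe sets in the fit. Figures were drawn with matplotlib 3.10.9.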

Additional observations from a re-analysis of the deposited data

How the results depend on the processing

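Each group has 2 arrays, so a fit without 1 array takes its spread from the other group alone, and a call lost there need not depend on the array left out. With 1 array left out, 97 to 1274 genes were higher and 161 to 1032 lower, 2 to 6 of the 10 IGF genes passed and 1 to 20 of the other pathway genes, against 397, 471, 5 and 6. With no filter 257 genes were higher, and 3 IGF and 2 pathway genes passed. Quantile normalization gave 774 lower and 13 pathway genes, cyclic loess 732 lower and 10 pathway genes, and median centring 3 IGF genes. With all probe sets in the fit 1 gene was higher and 11 lower, with 1 IGF gene (Igfbp5) and 1 pathway gene; the prior was then worth 5.25 degrees of freedom and p-values were adjusted over 21704 probe sets. Igfbp5 and Thbs1 passed in all 13 alternatives. The 3 small differences, past the threshold in 0 settings, changed sign with 1 array left out: Igfbp6 ran from -0.11 to 0.04 (0.04 without olaparib replicate 2), Igfbp7 from -0.11 (without DMSO replicate 1) to 0.15, and Igf2r from -0.08 to 0.0055 (the last without DMSO replicate 1). The cause was not tested. Igf1, Igf2 and Igfbp6 had values near background, which limits what could be seen of them. A fit with the replicate number as a block, added after seeing the data, gave 761 genes higher, 854 lower, 5 IGF genes and 13 pathway genes. It leaves 1 residual degree of freedom, and the numbers only name the arrays, since no label pairs a culture of one group with one of the other. Deviations of same-numbered arrays from their group means correlated at 0.17 across genes, which are not independent replicates.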
